A study of Mus musculus with 11 samples.

Results

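The 10 genes described here code for proteins of the sperm acrosome and of sperm-egg binding and fusion. They are Acr, Acrbp, Spaca1, Zpbp, Zpbp2, Izumo1, Spam1, Adam2, Adam3 and Hyal5. They were listed by name for their known roles and not by a cut on measured values, but with earlier results of these data known. All 10 had a row among the 24411 genes counted. The counts came from polyadenylated RNA of decapsulated whole testis of untreated 20-week-old mice. The 4 Irp1-/- samples came from mice with a global knockout of Aco1, which codes for iron regulatory protein Irp1. The 3 Irp2-/- samples came from mice with a global knockout of Ireb2, which codes for Irp2. The 4 control samples were wild-type (WT) C57Bl/6J mice, and the study's methods place the Irp1-/- allele on C57Bl/6J with WT littermates. The allele and strain of the Irp2-/- mice are not given in the sources used here, and the part of strain or breeding in Irp2-/- against WT was not tested. The knockouts covered every cell, so germ cells and the supporting cells of the testis lacked the protein alike. The labels do not say that each sample was a separate mouse, and p-values then measure the spread between these samples, which may be technical.

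The acrosome is a secretory vesicle that round spermatids build from the Golgi and spread over the sperm nucleus. Its contents are released at the zona pellucida, the coat of the egg, and membrane proteins exposed by this release take part in fusion with the egg. Messenger RNAs for these proteins are made in spermatocytes and round spermatids, and many are stored and translated later. Irp1 and Irp2 bind stem-loops in messenger RNAs of iron metabolism genes, and the acrosome genes are not among their classical targets.

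Within the 10, Acr codes for acrosin, the serine protease of the acrosome, and Acrbp for the protein that binds its precursor, proacrosin. Spaca1 is a membrane protein of the acrosome needed for its shape. Zpbp and Zpbp2 are related acrosomal matrix proteins. Izumo1 is the sperm surface protein that binds Juno on the egg. Spam1 (PH-20) and Hyal5 are sperm hyaluronidases, which cut the hyaluronan between the cumulus cells around the egg. Adam2 (fertilin beta) and Adam3 (cyritestin) are membrane proteins of the Adam family, which mouse sperm need for passage through the oviduct and for binding to the zona.

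Of the 10 genes, 7 had a RefSeq promoter window, which runs from 250 bases before to 50 bases after the annotated start in GRCm38.p6. Acr, Adam2 and Adam3 were not matched. The windows were searched on both strands for the full cyclic AMP response element (CRE) TGACGTCA, for its shorter core TGACG, which lies inside the full element, and for the MYB core CAGTTG. The full CRE stood in 1 of the 7 windows, that of Izumo1, with its first base at -96 from the start, and in 1.79% of all 32851 windows. It is shown in capitals in the window of Izumo1, chr7:45621561-45621860 on the plus strand.
Izumo1: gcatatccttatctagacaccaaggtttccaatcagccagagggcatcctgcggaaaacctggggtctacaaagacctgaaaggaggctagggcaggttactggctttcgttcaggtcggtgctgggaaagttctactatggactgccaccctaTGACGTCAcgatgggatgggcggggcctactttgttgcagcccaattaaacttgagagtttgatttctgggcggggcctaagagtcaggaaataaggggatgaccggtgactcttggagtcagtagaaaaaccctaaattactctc
The shorter CRE core stood in 4 of the 7 windows (Acrbp, Spaca1, Zpbp2 and Izumo1) and in 20.8% of all windows, and the MYB core in 1 of the 7 (Zpbp2) and in 13.7% of all windows.

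Only exact matches were searched, and the windows of Spam1 and Hyal5 held none of these motifs. They are shown because both genes stood lowest against WT in the Irp2-/- testis. Their capitals mark the longest stretch that the windows had in common, 18 bases long and starting at -52 in Spam1 and at -91 in Hyal5. No window other than these held the stretch among the 32851, and the comparison was made after the values were seen. The Spam1 window is chr6:24790938-24791237 and the Hyal5 window chr6:24857747-24858046, both on the plus strand.
Spam1: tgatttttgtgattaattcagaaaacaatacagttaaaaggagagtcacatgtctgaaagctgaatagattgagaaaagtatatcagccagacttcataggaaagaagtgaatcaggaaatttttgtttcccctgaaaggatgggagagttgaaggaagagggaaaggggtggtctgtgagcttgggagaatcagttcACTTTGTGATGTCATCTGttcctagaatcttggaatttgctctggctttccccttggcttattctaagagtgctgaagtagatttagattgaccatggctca
Hyal5: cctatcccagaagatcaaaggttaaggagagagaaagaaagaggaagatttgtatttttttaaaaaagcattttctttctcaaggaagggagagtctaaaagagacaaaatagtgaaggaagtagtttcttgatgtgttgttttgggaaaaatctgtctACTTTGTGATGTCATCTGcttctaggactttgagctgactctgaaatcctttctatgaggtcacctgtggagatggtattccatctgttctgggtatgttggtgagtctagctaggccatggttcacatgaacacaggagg
The window of Hyal6, their neighbour on chromosome 6, shared no more than 7 bases in a row with Spam1 and 9 with Hyal5. These matches describe letters only, and whether any factor binds them was not measured.

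The genes lie on 7 chromosomes of GRCm38. Acr is at chr15:89568326-89578853 on the plus strand, Acrbp at chr6:125049927-125063265 on the plus strand and Spaca1 at chr4:34024872-34050067 on the minus strand. Zpbp lies at chr11:11279624-11464223 on the minus strand and Zpbp2 on the same chromosome at chr11:98551097-98558665 on the plus strand. Izumo1 is at chr7:45621811-45627242 on the plus strand. Spam1 (chr6:24791188-24801048) and Hyal5 (chr6:24857937-24891959) sit in a row with Hyal6 and Hyal4 on the plus strand. Adam2 is at chr14:66027322-66077851 and Adam3 at chr8:24677232-24726377, both on the minus strand. Spaca1 lies 6.09 Mb from Aco1 on chromosome 4, and 0 of the 11 tested genes between them were called in Irp1-/- against WT. In GENCODE M21, exons of Acrbp and Izumo1 overlap exons of other genes on the same strand, so their counts could hold some reads of those genes. Exons of Zpbp and Adam3 overlap other genes on the opposite strand only. The libraries were stranded, but whether the counting used the strand is not given in the sources used here. None of the 45 pairs of the 10 genes shared a stretch of 50 bases, the read length, in their annotated transcripts.

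The libraries held 15902473 to 22451417 counts, and the counts of the 10 genes ranged from 1272 for Izumo1 to 29735, so that counting error alone was between 0.58% and 2.8% of a value. Levels are given as CPM, the count divided by the library size, which TMM scaled with factors from 0.979 to 1.027. A gene was called where the Benjamini-Hochberg adjusted p of the edgeR quasi-likelihood test over all tested genes was below 0.05. The targeted genes were checked first. Aco1 measured 9.8 to 12.9 CPM in WT and 7.93 to 9.13 CPM in Irp1-/- (log2 fold change -0.45, SE 0.098, adjusted p = 0.0158), and Ireb2 measured 131 to 144 CPM in WT and 61.8 to 62.7 CPM in Irp2-/- (log2 fold change -1.16, SE 0.05, adjusted p = 2.8e-13). The Aco1 call was lost without Irp1-/- replicate 6 (adjusted p = 0.0683) or without WT replicate 2 (0.0711), 3 (0.052) or 4 (0.075). With the replicate number as a block the value was -0.28 (adjusted p = 0.314), in a range of 0.00333 to 0.314 over 14 alternative fits. That block fit compares only replicates 1 and 2, the numbers that both genotypes have. How much of either transcript is outside the deleted part was not tested. In whole testis, fewer cells of a type and less RNA per cell cannot be told apart.

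All 10 genes were strongly expressed in WT testis. Adam3 stood at 1289 ± 51 CPM (SD, n = 4), the gene of rank 48 among 16002 tested genes and so in the top 0.3%. Acrbp (455 ± 15.3 CPM) and Adam2 (415 ± 6.67 CPM) lay in the top 2.23% and 2.62%. Spam1 was lowest with 78.9 ± 6.72 CPM, still in the top 18.7%, next to Izumo1 with 79.8 ± 1.18 CPM. The 10 genes together took 3354 ± 107 CPM, and Adam3 alone held 37.1% to 40.2% of the sum in every library of the 3 genotypes.

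Levels of different genes were compared per kilobase of the longest coding transcript in GENCODE M21. On this scale Adam3 led with 470 CPM per kilobase in WT, followed by Acrbp with 242. Spaca1 (166), Adam2 (163) and Zpbp2 (162) came next, and the WT ranges of neighbours among these overlapped. Acr followed with 140. Hyal5 (61.9) and Zpbp (56.7) overlapped as well, and Izumo1 (53.4) and Spam1 (37.5) closed the order. The gap between Adam3 and Acrbp, between Acr and Hyal5 and between Izumo1 and Spam1 held in 11 of 11 libraries. The related pairs were unequal on this scale, Zpbp2 above Zpbp, Adam3 above Adam2 and Hyal5 above Spam1. For Zpbp and Zpbp2 this rests on the annotated lengths, 4248 and 1577 bases. In CPM their WT ranges overlapped (234 to 247 for Zpbp and 244 to 268 for Zpbp2). Without length, in CPM, Zpbp moved from place 8 to place 5 and Spaca1 from place 3 to place 7.

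**Figure D1:**
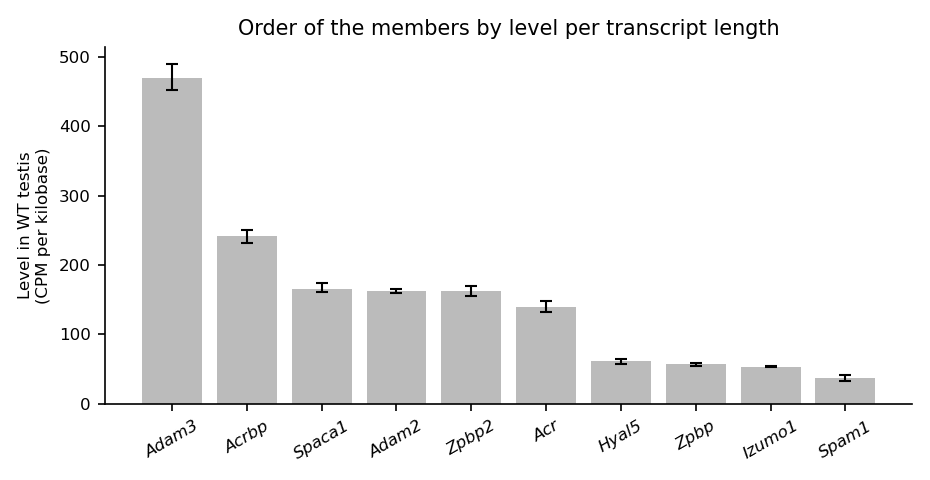
Mean level of each gene in the 4 WT libraries, in CPM per kilobase of transcript (y axis, from 0), with the genes on the x axis in falling order. Whiskers give the lowest and highest WT library. Adam3 stands at 470 CPM per kilobase and Spam1 at 37.5.

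The values of each gene follow in the order WT replicates 1 to 4, Irp1-/- replicates 1, 2, 6 and 7, and Irp2-/- replicates 1 to 3. Acr measured 222, 212, 210 and 199 CPM in WT, 213, 210, 213 and 203 CPM in Irp1-/-, and 213, 209 and 201 CPM in Irp2-/-. Acrbp measured 473, 460, 449 and 438 CPM in WT, 457, 466, 453 and 463 CPM in Irp1-/-, and 476, 460 and 458 CPM in Irp2-/-. For both genes the 3 genotypes overlapped, and the fitted log2 fold changes against WT lay between -0.02 and 0.03. Spaca1 measured 208, 203, 192 and 193 CPM in WT, 202, 208, 190 and 202 CPM in Irp1-/-, and 222, 179 and 199 CPM in Irp2-/-. The Irp2-/- libraries thus held both the highest and the lowest Spaca1 value of the series, and their SD (21.8 CPM) was the widest of the 3 genotypes (7.75 CPM in WT, 7.25 CPM in Irp1-/-). The sign of its difference from WT in Irp2-/- turned from 0.01 to -0.07 on the log2 scale without Irp2-/- replicate 1.

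The zona-binding matrix genes were as even. Zpbp measured 247, 241, 234 and 242 CPM in WT, 254, 249, 242 and 250 CPM in Irp1-/-, and 245, 236 and 226 CPM in Irp2-/-. Zpbp2 measured 259, 268, 244 and 253 CPM in WT, 254, 260, 258 and 285 CPM in Irp1-/-, and 259, 260 and 241 CPM in Irp2-/-. Both genes had a log2 fold change of 0.05 in Irp1-/- against WT, with 95% intervals of -0.03 to 0.12 for Zpbp and -0.04 to 0.13 for Zpbp2. In Irp2-/- against WT the values were -0.03 (-0.12 to 0.06) and -0.01 (-0.11 to 0.08).

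Izumo1, the ligand of Juno, had the narrowest spread in WT, 1.48% of its mean. It measured 81.4, 79, 78.7 and 79.9 CPM in WT, 82.3, 80.2, 82.2 and 80.5 CPM in Irp1-/-, and 81, 74.2 and 72.6 CPM in Irp2-/-. A pair of Irp2-/- libraries lay below every other library and the remaining one among them, and the log2 fold change in Irp2-/- against WT was -0.07 (95% interval -0.17 to 0.04, adjusted p = 0.781).

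Of the Adam genes, Adam2 measured 423, 417, 408 and 413 CPM in WT, 392, 402, 400 and 422 CPM in Irp1-/-, and 417, 405 and 391 CPM in Irp2-/-. Adam3 measured 1319, 1345, 1239 and 1254 CPM in WT, 1289, 1337, 1310 and 1402 CPM in Irp1-/-, and 1242, 1344 and 1242 CPM in Irp2-/-. Neither gene separated the genotypes. Adam2 had a log2 fold change of -0.04 in both knockouts against WT (SE 0.037 in Irp1-/-, SE 0.043 in Irp2-/-), and Adam3 had 0.05 in Irp1-/- (SE 0.038) and -0.01 in Irp2-/- (SE 0.046).

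The hyaluronidases were the members with the largest distance from WT in Irp2-/-. Spam1 measured 86.3, 81.9, 76.9 and 70.6 CPM in WT, 75.7, 80.7, 82 and 80.6 CPM in Irp1-/-, and 72.6, 65.4 and 73 CPM in Irp2-/-. All Irp2-/- values lay below the Irp1-/- values, but they overlapped WT, whose replicate 4 was below 2 of the 3. Hyal5 measured 133, 133, 127 and 120 CPM in WT, 129, 142, 126 and 123 CPM in Irp1-/-, and 119, 108 and 119 CPM in Irp2-/-. Every Irp2-/- value of Hyal5 was below every WT and Irp1-/- value, with Irp2-/- replicates 1 and 3 about 1 CPM under the lowest WT library.

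**Figure D2:**
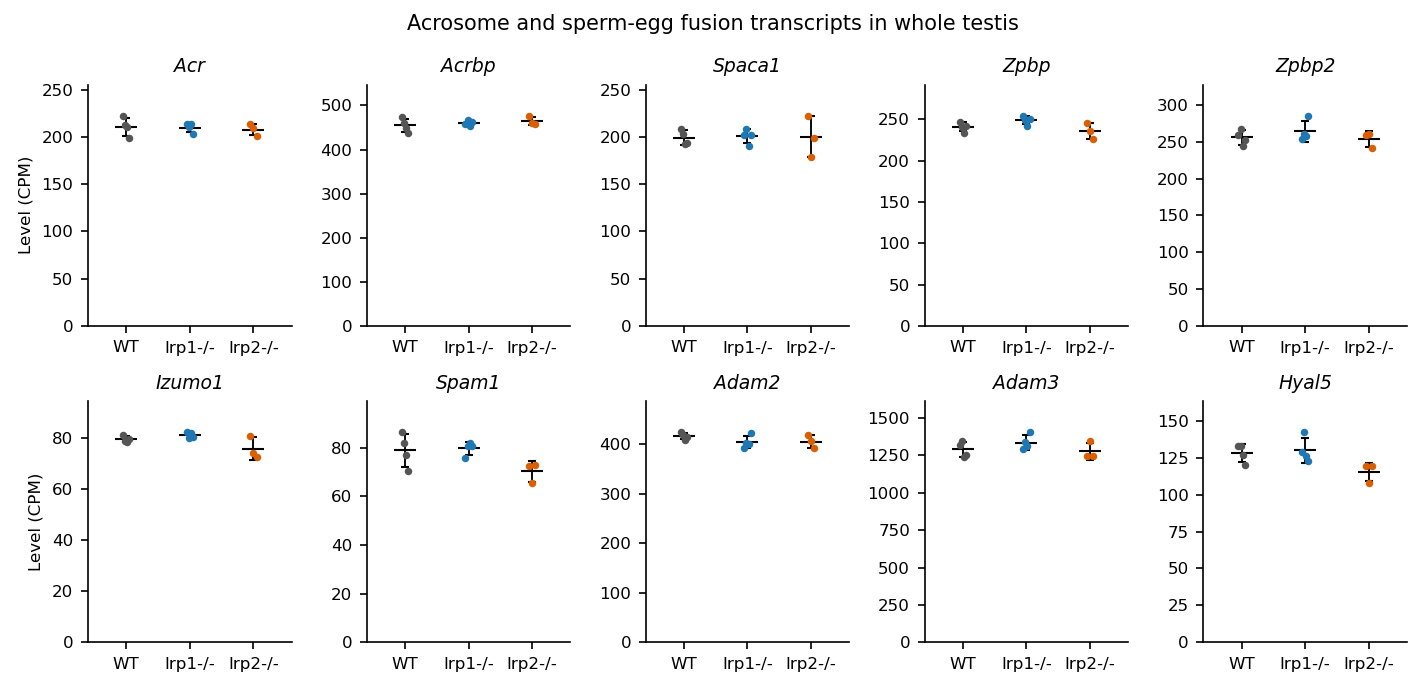
Level of each of the 10 genes in CPM (y axes, from 0) in WT (4 samples), Irp1-/- (4) and Irp2-/- (3) testis. Each point is a sample, the horizontal bar is the mean and the whisker is 1 SD. The groups overlap for every gene against WT but Hyal5, whose Irp2-/- values (108 to 119 CPM) lie under those of WT (120 to 133 CPM).

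Irp1-/- testis was compared with WT to ask whether loss of Irp1 alters the share of these transcripts in testis RNA. The study reported fewer spermatocytes and spermatids in Irp1-/- testis at this age. CPM are shares of a library, so the amount of a transcript per testis was not measured. None of the 10 genes was called by edgeR, where 1.02% of the 16002 tested genes were called in either direction. None had an unadjusted edgeR p under 0.05, which 12.1% of all tested genes had, and DESeq2 called 0 members as well. The log2 fold changes ran from -0.04 (Adam2) to 0.05 (Zpbp, Zpbp2 and Adam3), with a median of 0.02, and 8 of the 10 were above 0. The 95% intervals together spanned -0.12 to 0.13, so no member's interval reached a change of 10% in either direction. Adjusted p lay between 0.655 and 0.974. The genotypes overlapped for all 10 genes, while 6.63% of tested genes had no overlap. The summed level of the 10 was 3412 ± 75.9 CPM (n = 4), 102% of WT, with libraries from 3349 to 3510 CPM against 3259 to 3453 CPM in WT.

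In Irp2-/- against WT, again no member was called, beside 1.21% of 16154 tested genes called in either direction. Spam1 (log2 fold change -0.16, SE 0.062, 95% interval -0.29 to -0.03) and Hyal5 (-0.15, SE 0.052, interval -0.26 to -0.04) had an unadjusted p of 0.016 and 0.00772, which edgeR adjusted to 0.33 and 0.229. Of all tested genes, 9.42% had an unadjusted edgeR p under 0.05. DESeq2 called 0 members, with 2 at an unadjusted p under 0.05. Of the 10 genes 8 were below 0, and the median was -0.02. The members' groups failed to overlap in 1 case of 10 (Hyal5), against 9.23% of all tested genes. The other 8 members lay between -0.07 and 0.03. The summed level was 3303 ± 70.3 CPM (n = 3), 98.5% of WT. Over 13 alternative fits each, adjusted p ran from 0.117 to 0.705 for Spam1 and from 0.123 to 0.66 for Hyal5.

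The knockouts were also set against each other, using the same knockout samples as above. Here 4.69% of 16281 tested genes were called, and again none of the 10. Spam1 and Hyal5 were each 0.18 higher in Irp1-/- on the log2 scale (SE 0.054 and 0.056, intervals 0.07 to 0.30 and 0.06 to 0.30), with edgeR adjusted p of 0.0579 and 0.0769. These 2 of the 10 did not overlap between the knockouts, as was the case for 15.2% of tested genes. They were the 2 with an unadjusted edgeR p under 0.05, beside 16.3% of all tested genes, and DESeq2 called 0. Both lay near the threshold. Spam1 was called by edgeR without Irp2-/- replicate 1 (adjusted p = 0.0434) or replicate 3 (adjusted p = 0.0469), in a range of 0.0434 to 0.322 over 13 alternative fits. Hyal5 was called without Irp1-/- replicate 7 (adjusted p = 0.0455), with all 11 samples in one fit (0.0476) and with the replicate block (0.00435). Its adjusted p ran from 0.00435 to 0.379. The median over the 10 genes was 0.06, and 8 were above 0.

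**Figure D3:**
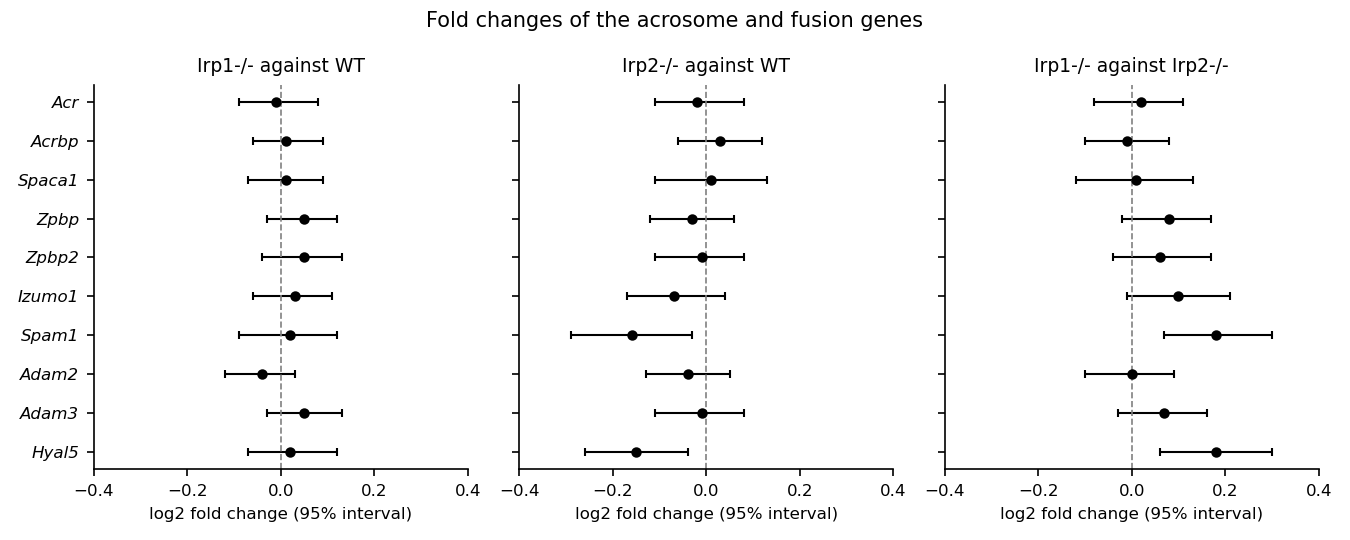
Fitted log2 fold change (x axis) of each of the 10 genes (y axis) in the 3 comparisons. Points are edgeR estimates, whiskers are 95% intervals and the dashed line marks no difference. Whiskers of Spam1 and Hyal5 stay left of 0 in Irp2-/- against WT and right of 0 in Irp1-/- against Irp2-/-, and those of all others cross 0.

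Across the 11 libraries, the log2 levels of most pairs of the 10 genes correlated above 0. Of their 45 pairs, 44 had a Pearson correlation above 0, with a median of 0.34 and a range of -0.11 to 0.85. With the genotype means taken out, 39 of the 45 were above 0, with a median of 0.44 and a range of -0.24 (Izumo1 with Adam3) to 0.89. Zpbp2 with Adam3 reached 0.85, Spam1 with Hyal5 0.83 and Zpbp with Izumo1 0.83, and within genotypes these were 0.82, 0.66 and 0.73. These points share libraries and scaling, and they are given as a description. Among 9397 other genes with a mean of at least 10 CPM, the profiles most like the members' mean over the 11 libraries were those of Tssk4 (0.93), a testis-specific serine kinase, 4430402I18Rik (0.93), 1700086L19Rik (0.92), Klhl10 (0.92), a ubiquitin ligase adaptor of spermatids, and Ttc23l (0.92).

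The genes around the 10 were taken as 5 lists. Of 36 other genes of acrosome contents and formation, none was called in Irp1-/- or in Irp2-/- against WT by edgeR or DESeq2, with 7 and 1 at an unadjusted edgeR p under 0.05 and medians of 0.00 and -0.03. Such a p was found for 12.1% of all tested genes in Irp1-/- against WT and 9.42% in Irp2-/- against WT. Between the knockouts it was 16.3%, and these shares also stand beside the lists and markers below. Acrv1, an acrosomal vesicle protein, measured 196 ± 4.98 CPM in WT, 200 ± 8.71 CPM in Irp1-/- and 189 ± 17.8 CPM in Irp2-/-. Zp3r (sp56), a matrix protein, measured 138 ± 1.04, 139 ± 8.59 and 131 ± 12.2 CPM in the same order. Crisp2, a secretory protein of the acrosome and tail, was more abundant than any member, with 1945 ± 29.9, 1848 ± 82.4 and 1882 ± 77.3 CPM. Dpy19l2, which anchors the acrosome to the nucleus, measured 264 ± 17, 260 ± 11.5 and 254 ± 5.37 CPM, and Spesp1 of the equatorial segment 326 ± 15.9, 322 ± 6.13 and 316 ± 4.7 CPM. Between the knockouts 2 of the 36 were called, both higher in Irp1-/-, where 2.92% of all tested genes were called higher. Spaca5, a lysozyme-like acrosomal protein coded on the X chromosome, measured 10.7, 10.4, 9.13 and 10.9 CPM in Irp1-/- and 7.93, 7.54 and 6.89 CPM in Irp2-/- (log2 fold change 0.46, SE 0.1, adjusted p = 0.00968). In WT it measured 7.8 to 8.68 CPM, overlapping Irp2-/- (log2 fold change against WT -0.17) but not Irp1-/- (0.29), and neither was called. Spaca6 was the other gene called between the knockouts and is described with the fusion genes.

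Of 12 partners of Izumo1 in fusion, 11 were counted and tested, and Dcst2 was not found under either of its symbols. Neither knockout had a call against WT by edgeR or DESeq2, with 1 gene each at an unadjusted edgeR p under 0.05. Dcst1 measured 82.8 ± 3.26 CPM in WT, 85.2 ± 6.57 CPM in Irp1-/- and 80.3 ± 3.49 CPM in Irp2-/-, at about the level of Izumo1. Eqtn, an acrosomal membrane protein, measured 116 ± 2.32, 117 ± 4.2 and 113 ± 7.05 CPM in that order. Tmem81 (17.5 ± 1.12 CPM in WT) and Tmem95 (3.31 ± 0.355 CPM in WT) were far lower. Spaca6, which sperm need to fuse with the egg, measured 24.2, 28.3, 24.4 and 21.6 CPM in Irp1-/- and 20.8, 18 and 18.8 CPM in Irp2-/-, with WT at 20.1 to 23.1 CPM, overlapping both. It was called between the knockouts (log2 fold change 0.36, SE 0.085, adjusted p = 0.0127), and lost the call without Irp1-/- replicate 2 (adjusted p = 0.0589) or Irp2-/- replicate 2 (adjusted p = 0.106), in a range of 4.0e-04 to 0.106 over 13 alternative fits.

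Adam3 reaches the sperm surface only with the help of chaperones and other factors in the testis, and of 14 such genes none was called in any comparison by edgeR or DESeq2. At an unadjusted edgeR p under 0.05 there were 0 in Irp1-/- against WT, 1 in Irp2-/- against WT and 1 between the knockouts. The chaperone Clgn measured 924 ± 23.3 CPM in WT, 904 ± 2.83 CPM in Irp1-/- and 878 ± 16.2 CPM in Irp2-/-. Calr3, another chaperone, measured 158 ± 12.4, 149 ± 10.1 and 153 ± 13.2 CPM. The disulfide isomerase-like Pdilt measured 220 ± 25.5, 238 ± 2.53 and 227 ± 9.66 CPM, and the surface protein Tex101 155 ± 1.62, 152 ± 6.47 and 157 ± 13.8 CPM. For Pdilt, WT replicate 1 was the lowest library with 182 CPM, and the other 10 measured 221 to 241 CPM.

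The largest differences around the 10 genes were among their own relatives. Of 18 other Adam genes of the testis, 6 were called lower in Irp2-/- than in WT, where 0.842% of all tested genes were called lower. They were Adam20 (log2 fold change -0.27), Adam24 (-0.21), Adam25 (-0.40), Adam26a (-0.40), Adam26b (-0.44) and Adam39 (-0.25), and DESeq2 called 6 as well. All 6 lie on chromosome 8, in clusters other than that of Adam3. Adam25 measured 58, 57.2, 53.2 and 56.1 CPM in WT, 58.1, 59.3, 58.8 and 54.2 CPM in Irp1-/-, and 43.5, 39.5 and 44.2 CPM in Irp2-/- (Irp2-/- against WT, SE 0.058, adjusted p = 2.6e-04). Adam26b measured 20.9, 20.7, 19.3 and 19.5 CPM in WT, 21.1, 22.3, 19.4 and 19.9 CPM in Irp1-/-, and 16.7, 13.4 and 14.1 CPM in Irp2-/- (SE 0.084, adjusted p = 0.00661). For both, every Irp2-/- library lay below every other library. In Irp1-/- against WT none of the 18 was called by edgeR or DESeq2, with 3 at an unadjusted edgeR p under 0.05. The same 6 were higher in Irp1-/- than in Irp2-/-, by 0.28 (Adam24) to 0.49 (Adam26b), and that comparison shares its Irp2-/- samples with the one before.

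Not every call against WT held with 1 library fewer. Without Irp2-/- replicate 2, Adam20, Adam24, Adam26b and Adam39 lost it (adjusted p = 0.12, 0.303, 0.0762 and 0.148), and without WT replicate 2, Adam20, Adam24 and Adam39 did (adjusted p = 0.0536, 0.148 and 0.0745). Adam24 also lost it without Irp2-/- replicate 3 (adjusted p = 0.0869), WT replicate 1 (0.167) or WT replicate 3 (0.0526). Over 13 alternative fits, the adjusted p ran from 0.00236 to 0.12 for Adam20, from 0.0157 to 0.303 for Adam24, from 0.00107 to 0.0762 for Adam26b and from 0.0081 to 0.148 for Adam39. Adam25 (1.7e-06 to 0.00934) and Adam26a (6.3e-06 to 0.0145) were called in all 13. Between the knockouts Adam39 lost its call without Irp2-/- replicate 2 (adjusted p = 0.0583, in a range of 1.1e-05 to 0.0583), and the other 5 kept theirs.

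Reads of these relatives may be hard to tell apart. Adam20, Adam25 and Adam39 shared 25.7% to 28.2% of their 50-base stretches with one another, and Adam26a and Adam26b 28.6% to 28.8%. The uncalled Adam34 shared 7.21% of its stretches with Adam26a and 6.59% with Adam26b. The promoter windows of Adam20 (chr8:40793023-40793322) and Adam25 (chr8:40751958-40752257), both on the plus strand, shared a run of 88 bases. It is printed in capitals as the clearest sign of how alike these genes are, and no other window held it.
Adam20: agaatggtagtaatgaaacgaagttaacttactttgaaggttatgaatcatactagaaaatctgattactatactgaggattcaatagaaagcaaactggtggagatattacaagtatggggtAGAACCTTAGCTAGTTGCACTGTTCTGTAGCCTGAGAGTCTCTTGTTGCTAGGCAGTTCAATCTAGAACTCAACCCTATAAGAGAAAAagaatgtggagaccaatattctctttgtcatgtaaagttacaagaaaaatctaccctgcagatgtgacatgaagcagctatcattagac
Adam25: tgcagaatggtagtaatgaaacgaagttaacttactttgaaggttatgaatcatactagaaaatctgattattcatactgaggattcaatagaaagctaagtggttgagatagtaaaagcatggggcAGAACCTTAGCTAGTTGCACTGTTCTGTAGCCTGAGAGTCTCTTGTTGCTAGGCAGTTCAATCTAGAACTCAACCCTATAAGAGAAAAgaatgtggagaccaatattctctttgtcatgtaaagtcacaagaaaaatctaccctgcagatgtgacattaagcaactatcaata
No Adam gene of the cluster around Adam3 was called. Adam18, beside it, measured 135 ± 4.88 CPM in WT, 127 ± 2.37 CPM in Irp1-/- and 127 ± 5.61 CPM in Irp2-/-, with a log2 fold change of -0.09 in Irp1-/- against WT (95% interval -0.17 to -0.01, edgeR adjusted p = 0.348) and of -0.09 in Irp2-/- against WT (-0.19 to 0.01). Adam5 measured 1300 ± 36.4 CPM in WT, 1310 ± 33.6 CPM in Irp1-/- and 1249 ± 74.9 CPM in Irp2-/-, and Adam32 680 ± 29.7, 666 ± 20.2 and 668 ± 33.3 CPM. Adam1a and Adam1b, which code for the alpha subunits that pair with Adam2, measured 299 ± 9.56 and 205 ± 9.7 CPM in WT and 287 ± 8.72 and 204 ± 10.9 CPM in Irp2-/-.

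Among the other hyaluronidases, Hyal6 was the one gene called, of 4 tested. Of all tested genes, 0.842% were called lower in Irp2-/- than in WT and 2.92% higher in Irp1-/- than in Irp2-/-. Hyal6 lies beside Spam1 and Hyal5. It measured 120, 113, 115 and 105 CPM in WT, 116, 110, 125 and 122 CPM in Irp1-/-, and 88.9, 91.7 and 95.4 CPM in Irp2-/-. Every Irp2-/- value was below every other, with a log2 fold change of -0.29 against WT (SE 0.052, adjusted p = 0.00306) and of 0.36 in Irp1-/- against Irp2-/- (SE 0.053, adjusted p = 1.8e-04). Hyal6 shared no 50-base stretch with Spam1 or Hyal5. Its value in Irp2-/- against WT stood beside -0.16 for Spam1 and -0.15 for Hyal5, both uncalled. The 3 tested hyaluronidase genes of the cluster, which also holds Hyal4, thus lay on the same side of 0. Spermatid markers mostly lay on that side too, with 2 of 14 round and 0 of 14 elongating markers above 0. The median over all tested genes was 0.0033, and 8 of 11 spermatogonia markers were above 0. Hyal1, Hyal2 and Hyal3 stayed under 6 CPM in every library, and Hyal4, with a level of 0.0621 to 0.402 CPM, was too low to test.

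**Figure D4:**
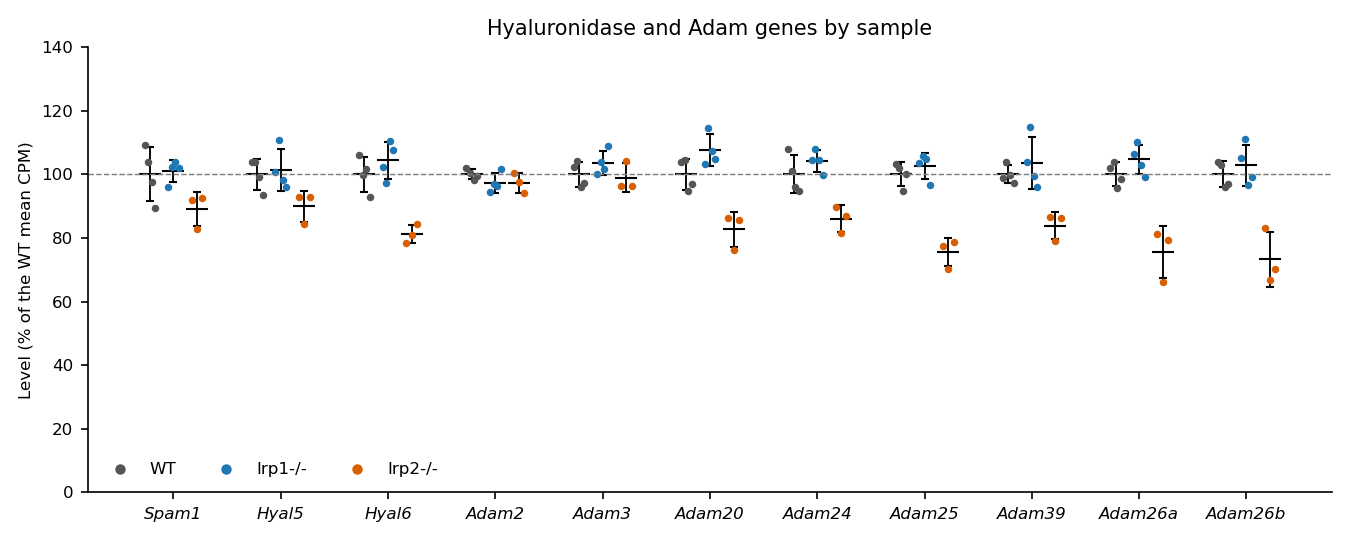
Level of the hyaluronidase and Adam genes in each sample as a percentage of the gene's WT mean CPM (y axis, from 0). Points are samples, horizontal bars are means and whiskers are 1 SD. The Irp2-/- points of Hyal6 and of Adam20, Adam24, Adam25, Adam39, Adam26a and Adam26b lie under all WT points, and those of Adam2 and Adam3 do not.

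Marker lists were read beside these values, since whole testis mixes cell types. Round spermatid markers, the stage at which the acrosome is built, summed to 3863 to 4043 CPM in WT, 3822 to 4143 CPM in Irp1-/- and 3582 to 4058 CPM in Irp2-/-. None of the 14 was called by edgeR in any comparison, with 2, 1 and 3 at an unadjusted p under 0.05, and DESeq2 called 1 in Irp2-/- against WT and 1 between the knockouts. Of these 14 markers 9 were above 0 in Irp1-/- against WT (median 0.03), 2 in Irp2-/- against WT (median -0.05) and 13 between the knockouts (median 0.09). Elongating spermatid markers summed to 31712 to 33064, 29936 to 33694 and 27520 to 32213 CPM. In Irp1-/- against WT 3 of these 14 were above 0, with a median of -0.05, none called by edgeR or DESeq2 and 4 at an unadjusted edgeR p under 0.05. In Irp2-/- against WT 0 of the 14 were above 0, with a median of -0.08 and 3 at an unadjusted p under 0.05, and 1 was called, Cabs1, a calcium-binding protein of late spermatids (log2 fold change -0.23, SE 0.044, adjusted p = 0.00533). The part of spermatid number in the lower hyaluronidase and Adam values of Irp2-/- testis was not tested.

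Some somatic markers were higher in Irp1-/-. Sertoli markers summed to 1188 to 1337 CPM in Irp1-/- and 1070 to 1162 CPM in WT. Most of this sum was Clu, with a mean of 832 of 1113 CPM in WT and 932 of 1234 CPM in Irp1-/-. Clu was also the 1 of 13 called (log2 fold change 0.16, edgeR adjusted p = 0.0473), beside 1.02% of all tested genes called in either direction. Its adjusted p ran from 1.1e-06, with the replicate block, to 0.307 over 14 alternative fits. Of the 13 Sertoli markers 11 were above 0, with a median of 0.10. Leydig markers summed to 1044 to 1239 CPM in Irp1-/- and 776 to 1117 CPM in WT, with 1 of 9 called by edgeR, Hsd17b3 (log2 fold change 0.37, adjusted p = 0.0232, range 0.0026 to 0.124). Of these 9 markers 8 were above 0, with a median of 0.38, and DESeq2 called 2. Between the knockouts edgeR called 4 of 13 Sertoli, 3 of 9 Leydig and 1 of 6 peritubular myoid markers higher in Irp1-/-, beside the 2.92% of all tested genes, and DESeq2 called 1, 2 and 1. Trf (0.37) was called in 11 of 13 alternative fits and Hsd3b1 (0.68) in 10, while Insl3 (0.27), Nr5a1 (0.24) and Actg2 (0.19) were called in 7. Of the peritubular myoid markers 3 of 6 lay above 0, with a median of 0.02. Their part in the members' values was not tested. No spermatogonia, spermatocyte or macrophage marker was called by edgeR or DESeq2, with between 0 and 4 of a list at an unadjusted edgeR p under 0.05 in each comparison. In Irp1-/- against WT 4 of 15 spermatocyte markers (median -0.03) and 2 of 11 tested spermatogonia markers (median -0.04) were above 0. In Irp2-/- against WT these were 4 of 15 (median -0.03) and 8 of 11 (median 0.07). Of 10 epididymis markers 9 stayed under 1 CPM in every library and 2 were at 0 in all.

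**Figure D5:**
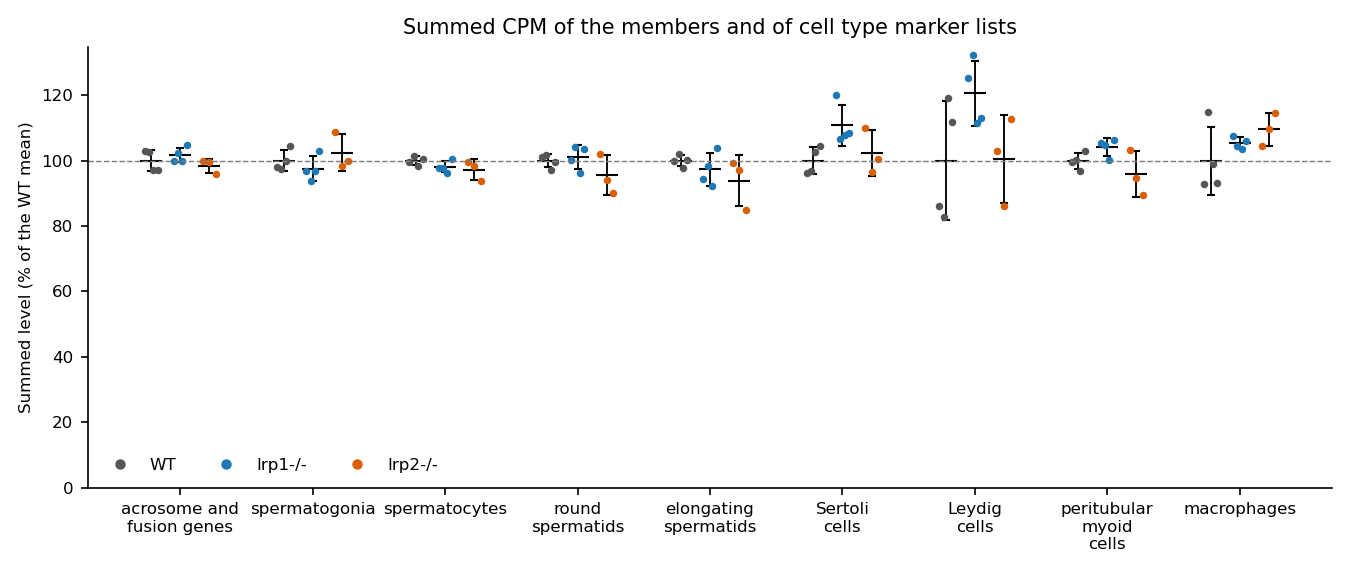
Summed CPM of the 10 genes and of 8 cell type marker lists in each sample, as a percentage of the WT mean (y axis, from 0). Points are samples, horizontal bars are means and whiskers are 1 SD. The 10 genes stay close to 100% in all genotypes (group means of 102% in Irp1-/- and 98.5% in Irp2-/-), while the Sertoli sums of Irp1-/- lie above all WT sums. Clu makes up most of the Sertoli sum (a mean of 832 of 1113 CPM in WT).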

How the data were processed

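Whole testis RNA of 11 samples (4 WT, 4 Irp1-/-, 3 Irp2-/-) was analysed from 1 table of raw read counts per gene, which the authors deposited without normalization. Per the study's methods, stranded 50 bp paired-end libraries were processed with an nf-core RNA-seq pipeline against mm10, and the counting tool is not given in the sources used here. Irp1-/- replicate 6 is marked R in the table's header and every other sample L, without a stated meaning, and the fits ignored this mark. The test was the quasi-likelihood F test of edgeR 4.0.16 under R 4.3.3 (TMM, default filter on low counts, robust dispersions) on the samples of each pair of genotypes, with Benjamini-Hochberg adjustment over all tested genes and a threshold of 0.05. DESeq2 1.42.0 served as an alternative. The standard error is the fold change over the root of F. Total counts were 15902473 to 22451417 a library, and no pair of libraries of a genotype agreed within counting noise.

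The members and the gene lists were chosen with earlier results of these data known. Named genes were all members, called genes of the 5 related lists (up to 5 a list and comparison), a fixed set of partners, called marker genes (up to 3), Aco1 and Ireb2, and the 5 genes whose profile was most like the members' mean. Of the symbols listed, Spaca9 was matched by its older symbol. Promoter windows are RefSeq's for GRCm38.p6, gene positions are RefSeq's for the same build and transcripts are GENCODE M21. The scripts' calls were tested on simulated counts. The settings varied were the scaling (RLE, total counts), the count filter, the tool (DESeq2), 1 fit of all 11 samples, a replicate block, leaving out each sample and, added after the data were seen, summed paralogs.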

Additional observations from a re-analysis of the deposited data

Results flagged for a closer look

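Irp1-/- and Irp2-/- testis differed by the edgeR test of the knockouts against each other in 9 of 80 tested genes of the 5 lists, beside 4.69% of all tested genes called and 2.92% called higher in Irp1-/-. The log2 fold change of Irp1-/- against Irp2-/- was 0.38 for Adam20, 0.28 for Adam24, 0.44 for Adam25, 0.47 for Adam26a, 0.49 for Adam26b and 0.31 for Adam39. It was 0.36 for Hyal6, 0.46 for Spaca5 and 0.36 for Spaca6. All 9 were higher in Irp1-/-. Adam39 lost its call without Irp2-/- replicate 2 (adjusted p = 0.0583), and Spaca6 without that library (0.106) or Irp1-/- replicate 2 (0.0589). No sample stood far from the other 3 of its genotype in any of the 38 groups of 4 examined over 19 genes, the 10 members and these 9, where chance gives about 1 in 20.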

How the results depend on the processing

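No member was called in Irp1-/- or Irp2-/- against WT under any alternative run (140 and 130 member fits). Between the knockouts 1 member was called with all 11 samples in one fit, 1 with the replicate block (Hyal5, 0.27, adjusted p = 0.00435, range over alternatives 0.00435 to 0.379), and 0 to 1 when a sample was left out. Genes of the 5 lists called in Irp2-/- against WT numbered 7, and 3 to 8 when a sample was left out. Deviations of same-numbered samples correlated between -0.02 and 0.11, too weakly to show or exclude a pairing by replicate number. The closest WT sample had the same number for Irp2-/- replicates 2 and 3, but was replicate 4 for Irp2-/- replicate 1 (0.10). A block fit compares only samples whose number occurs in both genotypes. These were replicates 1 and 2 in both comparisons with Irp1-/-, and replicates 1 to 3 in Irp2-/- against WT. With the number as a replicate block, list genes called in Irp2-/- against WT were 4, in Irp1-/- against WT 1 (Pdilt) in place of 0, and the median of the members in Irp1-/- against WT was -0.02 in place of 0.02. Other medians, and all member means in CPM, moved by less than 1 SD between samples. Uncalled member values near 0 changed sign in 35 fits, 29 of them by less than 1 SE, and the cause was not tested. Under the block, Irp1-/- against WT became -0.02 for Acrbp, -0.01 for Spaca1, -0.04 for Zpbp2, -0.11 for Spam1 and -0.02 for Adam3, Spaca1 became -0.01 in Irp2-/- against WT, and Zpbp2 -0.01 between the knockouts. Adam2 between the knockouts became 0.00 with DESeq2, RLE and all 11 samples in one fit. With 1 sample left out, Irp1-/- against WT ran over -0.01 to 0.03 for Spaca1, -0.02 to 0.05 for Hyal5, -0.03 to 0.02 for Acr, 0.00 to 0.04 for Acrbp and -0.03 to 0.06 for Spam1. Irp2-/- against WT ran over -0.07 to 0.09 for Spaca1, -0.05 to 0.01 for Adam3, -0.04 to 0.01 for Zpbp2 and -0.04 to 0.00 for Acr. The knockouts against each other ran over -0.02 to 0.02 for Adam2, -0.07 to 0.09 for Spaca1, -0.02 to 0.00 for Acrbp and 0.00 to 0.03 for Acr. Over all fits of single genes, 5 values gained a call (Spam1 in 2 and Hyal5 in 3 fits between the knockouts) and 74 values of list and marker genes, Aco1 included, lost one. Counts of relatives were summed after their calls were seen, so the sums are no independent test: in Irp2-/- against WT they gave -0.20 for Spam1, Hyal5 and Hyal6, -0.26 for Adam20, Adam24, Adam25 and Adam39, and -0.41 for Adam26a and Adam26b. Cutting the promoter windows to the 250 bases before the start lowered the share with a full CRE to 1.55%, with its shorter core to 17.8% and with the MYB core to 11.1%. At this depth every member had at least 1272 counts in each library, and Hyal4 was too low to test.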
